A study of Homo sapiens with 12 samples.

Results

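AA263-5 and AA263yne, both analogs of the compound AA263, were compared gene by gene for what they did to the transcriptome of HEK293T cells at the same dose and time. Per gene, the log2 fold change of AA263yne over vehicle was subtracted from that of AA263-5, so that the vehicle samples both share cancelled and a negative value stands for a lower level with AA263-5. The comparison covered 11642 of the 23292 gene symbols in the deposited tables, those with a mean normalised value of at least 100, and 6 of the 12 samples in the series. It is 1 pair of compounds. The cells were exposed for 6 h to DMSO vehicle, to AA263 at 10 µM, to AA263yne at 10 µM or to AA263-5 at 10 µM, with 3 biological replicates in each group per the series' design text. HEK293T is an established line from human embryonic kidney, and the growth protocol names its parent, HEK293; all samples were of this 1 line, which the labels call WT. The study asked how selectively these compounds activate ATF6, and the question here was which genes and functions set the analogs apart.

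ATF6 is a membrane protein of the endoplasmic reticulum (ER) that is cut when the ER is stressed, whereupon its freed fragment enters the nucleus and switches on chaperones and folding enzymes of the ER. It is 1 of 3 arms of the unfolded protein response (UPR). IRE1 splices the mRNA of the factor XBP1, giving XBP1s, and PERK slows translation while favouring ATF4, a factor that induces amino acid transport and synthesis genes within the integrated stress response (ISR). Chaperone promoters often hold the ER stress response element (ERSE), CCAAT and CCACG set 9 bases apart, and many ATF4 targets hold a C/EBP-ATF response element (CARE), TGATGNAA.

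Promoters of 4 genes are shown because they stand for the main results: a chaperone on which the analogs did not separate (HSPA5), an ATF4 target with a small difference (ASNS), and genes lower with AA263-5 from the amino acid transport and Notch programs (SLC3A2, HES1). Each runs from 250 bases before to 50 after a start site listed by RefSeq on GRCh38.p14, 5′ to 3′ on the gene's strand. The windows are chr9:125241294-125241593 on the minus strand for HSPA5, chr7:97872359-97872658 on the minus strand for ASNS, chr11:62881449-62881748 on the plus strand for SLC3A2 and chr3:194135898-194136197 on the plus strand for HES1. Capitals mark the ERSE in HSPA5, the CARE in ASNS, an AP-1 motif (TGACTCA) and then a CARE read on the other strand in SLC3A2, and a match to GTGGGAA, the core bound by the Notch effector RBPJ, in HES1.
HSPA5: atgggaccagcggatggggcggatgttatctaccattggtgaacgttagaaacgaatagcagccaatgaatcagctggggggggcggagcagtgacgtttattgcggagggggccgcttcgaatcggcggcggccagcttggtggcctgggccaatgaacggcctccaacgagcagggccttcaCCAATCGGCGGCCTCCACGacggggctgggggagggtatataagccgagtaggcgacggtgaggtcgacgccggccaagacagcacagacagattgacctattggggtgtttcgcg
ASNS: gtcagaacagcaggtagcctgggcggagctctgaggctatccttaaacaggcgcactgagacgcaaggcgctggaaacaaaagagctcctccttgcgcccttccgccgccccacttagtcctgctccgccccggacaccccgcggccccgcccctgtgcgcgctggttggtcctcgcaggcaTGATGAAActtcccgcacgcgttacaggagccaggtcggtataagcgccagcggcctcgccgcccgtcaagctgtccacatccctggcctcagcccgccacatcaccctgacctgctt
SLC3A2: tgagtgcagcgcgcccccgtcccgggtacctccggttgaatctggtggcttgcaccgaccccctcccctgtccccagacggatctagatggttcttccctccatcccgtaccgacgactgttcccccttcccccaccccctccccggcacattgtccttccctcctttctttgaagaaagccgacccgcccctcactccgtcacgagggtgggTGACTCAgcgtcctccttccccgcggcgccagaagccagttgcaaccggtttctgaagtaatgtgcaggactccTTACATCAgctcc
HES1: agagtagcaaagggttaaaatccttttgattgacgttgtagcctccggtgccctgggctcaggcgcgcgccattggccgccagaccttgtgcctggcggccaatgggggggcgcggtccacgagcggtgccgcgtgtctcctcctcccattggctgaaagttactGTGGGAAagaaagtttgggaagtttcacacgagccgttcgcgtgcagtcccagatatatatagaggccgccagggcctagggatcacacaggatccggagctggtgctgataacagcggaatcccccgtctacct

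Across all genes the analogs lay close together. The median difference was -0.01 on the log2 scale, 51.7% of genes were below 0, the standard deviation over genes was 0.20, and 84.5% of genes differed by less than 0.25. The 95% interval of the difference lay wholly within 1.5-fold for 9055 genes, or 77.8% of those tested. At an adjusted p under 0.05, 6 genes were higher with AA263-5 than with AA263yne (0.0515% of genes tested) and 24 were lower (0.206%). At an unadjusted p under 0.05, 387 genes were higher (3.32%) and 635 were lower (5.45%). Against vehicle, AA263yne had 688 genes higher (5.91%) and 541 lower (4.65%), whereas AA263-5 had 1212 higher (10.4%) and 1347 lower (11.6%), each at an adjusted p under 0.05. These calls came from Wald tests on the deposited DESeq2 estimates. The Wald statistics of the difference spread more widely than a standard normal, with a robust SD of 1.11, and when they were divided by it only NT5DC2 and TNFRSF10D of the 30 genes kept an adjusted p under 0.05. Taking out a trend on GC content left 13 of the 30, SLC3A2, HES1, DUSP4 and LSS among them. HOXA3 and RHOB did not pass then, although the difference of HOXA3 went only from -0.87 to -0.84 (adjusted p = 0.0765) and the difference of RHOB from -0.58 to -0.55 (adjusted p = 0.085).

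**Figure D1:**
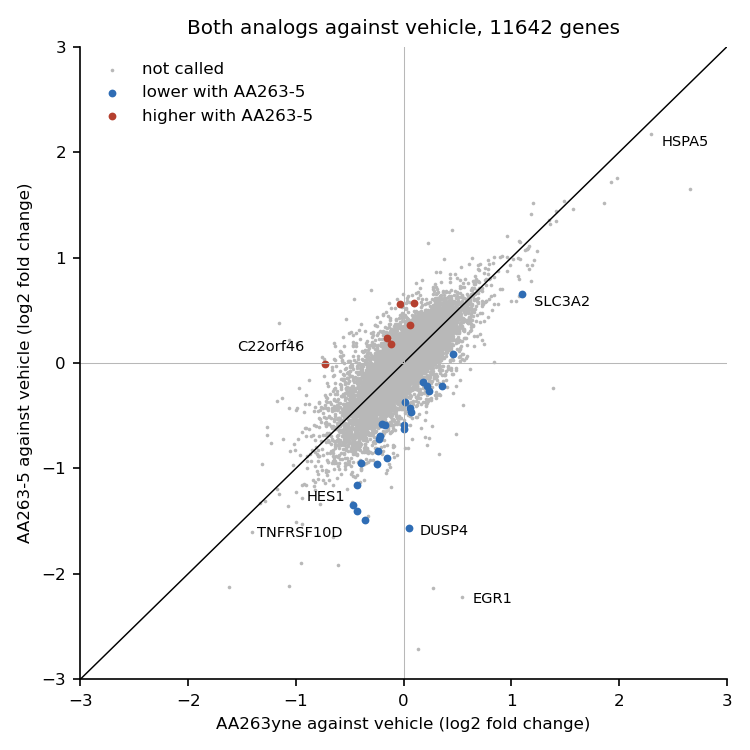
Log2 fold change of each of the 11642 genes against vehicle with AA263yne (horizontal axis) and AA263-5 (vertical axis), with the line of equal change. The 24 genes lower with AA263-5 (blue) lie below the line and the 6 higher genes (red) above it, while HSPA5 sits close to it; both axes share the vehicle samples.

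No ATF6 or XBP1s target passed the adjusted test between the analogs. HSPA5 encodes BiP, the main HSP70 chaperone of the ER, and had normalised values of 21312.5 with vehicle, 104654 with AA263yne and 96454 with AA263-5. Its log2 fold change against vehicle was 2.30 ± 0.09 (SE) with AA263yne and 2.18 ± 0.09 with AA263-5, and the difference was -0.12 with a 95% interval from -0.29 to 0.05 (adjusted p = 0.783). DNAJB9, the XBP1s-induced cochaperone ERdj4, rose by 1.58 ± 0.25 and 1.46 ± 0.25 on the log2 scale, a difference of -0.11 with an interval from -0.61 to 0.38. The gene for the death-linked factor CHOP, DDIT3, rose by 1.15 ± 0.24 and 0.93 ± 0.24, a difference of -0.21 with an interval from -0.68 to 0.25. Neither difference passed the test, and the intervals of DNAJB9 and DDIT3 are too wide to show that the analogs acted alike on them.

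Of the 17 ATF6 targets tested, from a set the study used, 16 were higher than vehicle with AA263yne, beside 5.91% of all genes. With AA263-5, 16 of the 17 were higher, beside 10.4%. None passed the adjusted test between the analogs, and their median difference was -0.01, beside -0.01 over all genes. The median was -0.04 over the targets with a mean of at least 500 and -0.03 after a trend on GC content was taken out. For 16 of the 17 the 95% interval stayed within 1.5-fold. HERPUD1, which serves the degradation of misfolded ER proteins, was the 1 member with an unadjusted p under 0.05, beside 5.45% of all genes lower at that level, at 7297 with AA263yne and 6261 with AA263-5 (difference -0.22 ± 0.09, adjusted p = 0.414). SELK, a selenoprotein of the same pathway, had the lowest difference of the set, -0.35 ± 0.18. The 18 IRE1/XBP1s targets had a median difference of -0.02, with none at an unadjusted p under 0.05 and 16 intervals within 1.5-fold. Among 24 ER chaperones and cochaperones the median was 0.00 and no member reached an unadjusted p under 0.05, and among 31 genes of ER-associated degradation the median was -0.01, 2 were lower at that level, beside 5.45% of all genes, and all 31 intervals were within 1.5-fold. The 21 protein disulfide isomerases, which form and rearrange disulfide bonds, had a median of 0.05. The membrane-bound members TMX4 (0.36 ± 0.15) and TMX2 (0.30 ± 0.12) were higher at an unadjusted p under 0.05, beside 3.32% of all genes, QSOX1 (-0.23 ± 0.10) was lower, beside 5.45%, and none passed the adjusted test.

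Of the 20 PERK/ISR targets, 5 were higher than vehicle with AA263yne and 7 with AA263-5, and 1 was lower with each. Between the analogs 15 had a difference below 0, that is a lower value with AA263-5, beside 51.7% of all genes. The median difference was -0.18, and it was -0.09 over the members with a mean of at least 500. Among the 20, 6 had an unadjusted p under 0.05, all of them lower, beside 5.45% of all genes. None passed the adjusted test. ATF3, a stress-induced repressor, stood at 2279 with vehicle, 2972 with AA263yne and 2122 with AA263-5, a difference of -0.49 ± 0.16 (adjusted p = 0.198). PPP1R15A encodes GADD34, which restores translation after PERK acts, and differed by -0.41 ± 0.13 (adjusted p = 0.219). CEBPB, a partner of ATF4 at its sites, differed by -0.64 ± 0.22. For both ATF3 and CEBPB the level with AA263yne was above vehicle and that with AA263-5 below it, although neither analog's own change passed the test. ASNS, the asparagine synthetase whose CARE is shown above, rose with both analogs, by 0.59 ± 0.07 and 0.38 ± 0.07, and differed by -0.21 ± 0.07 (adjusted p = 0.255). The mRNA of ATF4 itself differed by 0.00, with an interval from -0.15 to 0.15. The ATF4-induced regulators, 20 genes that share ATF3, PPP1R15A and CEBPB with this set, also had a median of -0.18 with 17 below 0, and the median was -0.11 after the trend on GC content was taken out.

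SLC3A2 was the clearest separating gene of the amino acid program. It encodes the heavy chain that carries several amino acid exchangers to the cell surface, including the leucine importer and the cystine importer. Its normalised value was 4694 with vehicle, 10039.6 with AA263yne and 7407 with AA263-5, a log2 fold change of 1.10 ± 0.09 with AA263yne and of 0.66 ± 0.09 with AA263-5. The difference was -0.44 ± 0.09, 1.36-fold higher with AA263yne (adjusted p = 0.00689). Over the 15 amino acid transporters the median difference was -0.14 and 13 were below 0, beside 51.7% of all genes. The median was -0.05 over those with a mean of at least 500. SLC38A1 (-0.34 ± 0.13) and SLC38A2 (-0.21 ± 0.11), which import glutamine and other small neutral amino acids, had an unadjusted p under 0.05 without passing the adjusted test. With SLC3A2, 3 of the 15 were lower at that level, beside 5.45% of all genes, and 1 passed the adjusted test, beside 0.206%. The 18 genes of serine, asparagine, proline and one-carbon synthesis had a median of -0.05, and 15 were below 0, beside 51.7% of all genes. Of the 18, 3 were lower at an unadjusted p under 0.05, beside 5.45%, and all 18 intervals were within 1.5-fold. The 20 cytosolic aminoacyl-tRNA synthetases, many of which ATF4 also induces, had a median of 0.03 and none at an unadjusted p under 0.05.

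**Figure D2:**
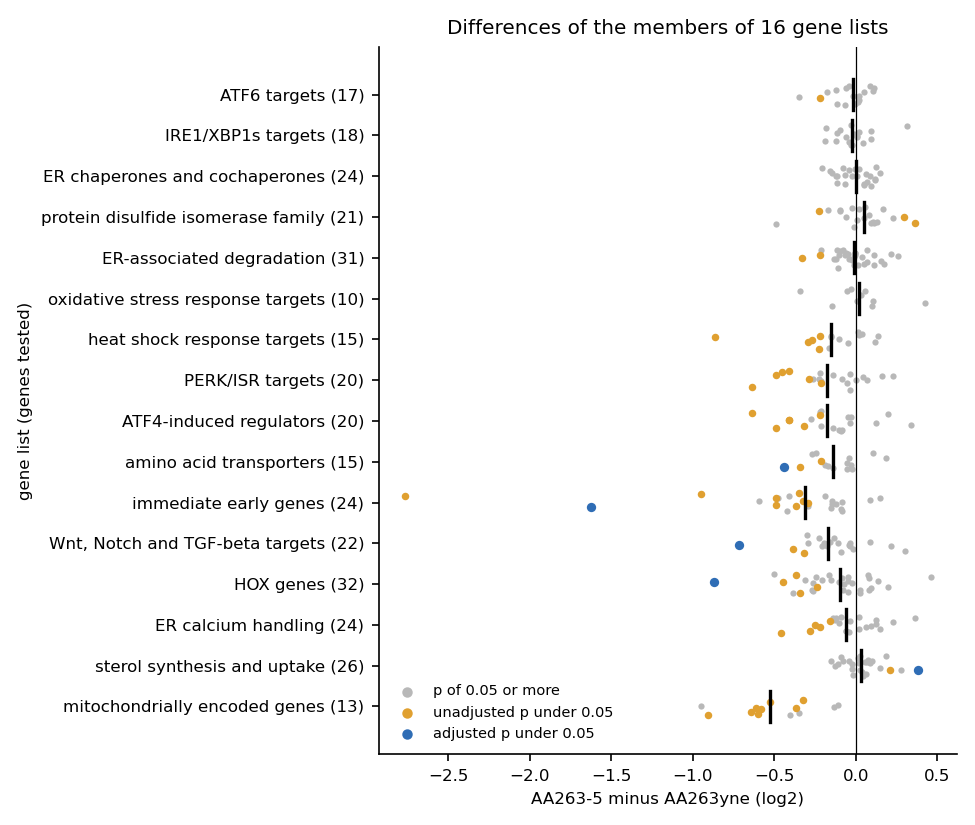
Difference of AA263-5 minus AA263yne (log2, horizontal axis) for each tested member of 16 gene lists, with the number tested in parentheses and the list's median as a bar. Medians of the ATF6 and XBP1s targets sit at -0.01 and -0.02, those of the PERK/ISR targets and immediate early genes at -0.18 and -0.31.

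The immediate early genes, which signalling through MAP kinases switches on without new protein synthesis, had a median difference of -0.31 over 24 members. All but 2 were below 0, beside 51.7% of all genes, 9 were lower at an unadjusted p under 0.05, beside 5.45%, and 1 passed the adjusted test, beside 0.206%. That gene was DUSP4, a phosphatase that is induced by MAP kinases and turns them off. DUSP4 had a normalised value of 195 with vehicle, 202 with AA263yne and 65.8 with AA263-5, a 3.07-fold lower level with AA263-5 than with AA263yne (difference -1.62 ± 0.38, adjusted p = 0.021). AA263yne left it near vehicle (0.05 ± 0.38), whereas AA263-5 lowered it by a log2 fold change of -1.57 ± 0.39. MYC (-0.30 ± 0.09), JUN (-0.32 ± 0.10) and FOSL2 (-0.95 ± 0.32) encode transcription factors of the same early wave and did not pass the adjusted test. EGR1, the zinc finger factor that is the standard readout of this wave, had the next to lowest difference in the table, at 1406 with AA263yne and 207 with AA263-5. Its standard error was 0.95 on the log2 scale, so the 95% interval ran from -4.63 to -0.89 and the adjusted p was 0.26.

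In the lists of Wnt, Notch and TGF-beta targets and of HOX genes, 1 member each passed the test, beside 0.206% of all genes called lower. HES1, a repressor that Notch induces, fell with AA263-5 from 1228 to 552 (log2 fold change -1.15 ± 0.16) and stood at 908 with AA263yne (-0.44 ± 0.16, adjusted p = 0.062). The analogs differed on it by -0.72 ± 0.16 (adjusted p = 0.015). The related Notch targets HES4 (-0.32 ± 0.13) and HEY2 (-0.38 ± 0.17) had an unadjusted p under 0.05. Over 22 Wnt, Notch and TGF-beta targets the median was -0.17, with 19 below 0, beside 51.7% of all genes. Of the 22, 3 were lower at an unadjusted p under 0.05, beside 5.45% of all genes. HOXA3, a patterning factor of the HOXA cluster, stood at 489 with vehicle, 352 with AA263yne and 193 with AA263-5, and differed by -0.87 ± 0.22 (adjusted p = 0.0436). Its exons overlap those of the antisense genes HOXA-AS2 and HOXA-AS3, and the sources used here do not say whether reads were counted by strand. They also overlap other annotated genes on the same strand, whose reads strand alone cannot tell apart. Over 32 HOX genes the median was -0.09 with 23 below 0, beside 51.7% of all genes. The median was -0.05 after a trend on transcript length was taken out. HOXA10 (-0.34 ± 0.10) and HOXD11 (-0.37 ± 0.14) were among 5 lower at an unadjusted p under 0.05, beside 5.45% of all genes.

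**Figure D3:**
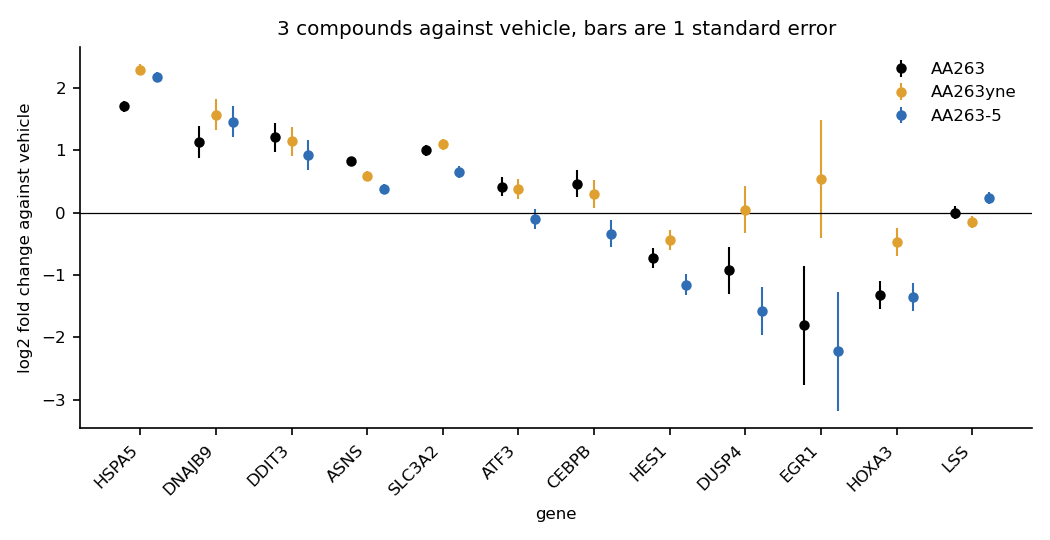
Log2 fold change against vehicle (vertical axis) of 12 genes with AA263, AA263yne and AA263-5, with bars of 1 standard error as deposited. Both analogs raised HSPA5 and DNAJB9, while SLC3A2, HES1, DUSP4 and HOXA3 lay lower with AA263-5 and LSS higher.

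The other genes lower with AA263-5 had various functions. NT5DC2, a protein with a nucleotidase domain whose exons overlap STAB1 on the other strand, had the smallest p, with 12556 for vehicle, 11122 for AA263yne and 8327 for AA263-5 (difference -0.42 ± 0.08, adjusted p = 0.00291). TNFRSF10D, a decoy receptor that binds the death ligand TRAIL without passing on its signal, stood at 415 with vehicle, 325 with AA263yne and 148 with AA263-5 (-1.14 ± 0.23, adjusted p = 0.00326). CDKN2A, which encodes the cell cycle inhibitors p16 and p14ARF, differed by -0.49 ± 0.10, and the small GTPase RHOB by -0.58 ± 0.15. CADM1, an adhesion molecule, differed by -0.38 ± 0.08, and SLC9A3R1, a scaffold under the plasma membrane, by -0.47 ± 0.11. NELFA, a subunit of the complex that pauses RNA polymerase II, differed by -0.37 ± 0.09. MBOAT7, which attaches arachidonate to lysophosphatidylinositol, differed by -0.48 ± 0.12, and PTGIR, the prostacyclin receptor, by -0.60 ± 0.14. MEX3A (an RNA-binding protein), MESDC1 (an actin-bundling protein), DIRC2 (a transporter of the lysosome), ZNF414, ZNF503, ZNF672, FOPNL, YDJC, CCDC71L, MEGF9 and LOC105378512 made up the rest, with differences from -0.97 to -0.36. The difference of YDJC, -0.36, was -0.22 (adjusted p = 0.396) after the trend on GC content was taken out.

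Seen against vehicle, 18 of the 24 lower genes had fallen with AA263-5 and none with AA263yne at an adjusted p under 0.05. Over all genes, 11.6% were lower than vehicle with AA263-5 and 4.65% with AA263yne. The 24 were picked because AA263-5 lay below AA263yne, and the counts in this paragraph reuse the same fold changes. They follow in large part from that choice and test nothing. SLC3A2 and DIRC2 were the 2 of the 24 that had risen with AA263yne, beside 5.91% of all genes. SLC3A2 alone had risen with AA263-5, beside 10.4%. AA263-5 moved the gene further from vehicle than AA263yne did for 19 of the 24. In 10 of them the analogs lay on opposite sides of vehicle, among them RHOB, FOPNL and YDJC, for which neither analog's own change passed the test. The change with AA263yne passed it for none of the 10. For some of them it was near 0, as for MEGF9 (0.00) and MESDC1 (0.01), so opposite signs do not show opposite effects.

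The 6 genes higher with AA263-5 differed by 0.29 to 0.73. LSS, the lanosterol synthase of the cholesterol pathway, whose exons overlap a pair of antisense genes, stood at 1954 with vehicle, 1759.95 with AA263yne and 2297 with AA263-5 (difference 0.38 ± 0.10, adjusted p = 0.0442). After a trend on transcript length was taken out, the difference of LSS was 0.37 (adjusted p = 0.0594). Over 26 genes of sterol synthesis and uptake the median was 0.03, or 0.06 after that trend, and ACAT2 (0.21 ± 0.11), which joins 2 acetyl-CoA molecules at the start of the pathway, was the other of 2 members higher at an unadjusted p under 0.05, beside 3.32% of all genes. LSS was the 1 member that passed the adjusted test, beside 0.0515% of all genes called higher. CSNK1A1, the kinase that primes beta-catenin for destruction, differed by 0.30 ± 0.08. CHMP4A, a membrane-cutting ESCRT-III subunit, differed by 0.47 ± 0.12, and its exons overlap a readthrough gene on the same strand. MICU2, which gates the calcium channel of mitochondria, differed by 0.29 ± 0.07 and the zinc finger gene ZNF589 by 0.59 ± 0.14. C22orf46, which GENCODE lists as a pseudogene, was at 386 with vehicle, 232 with AA263yne and 384 with AA263-5, so that the difference of 0.73 ± 0.17 came with a fall under AA263yne and no detectable change under AA263-5.

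**Figure D4:**
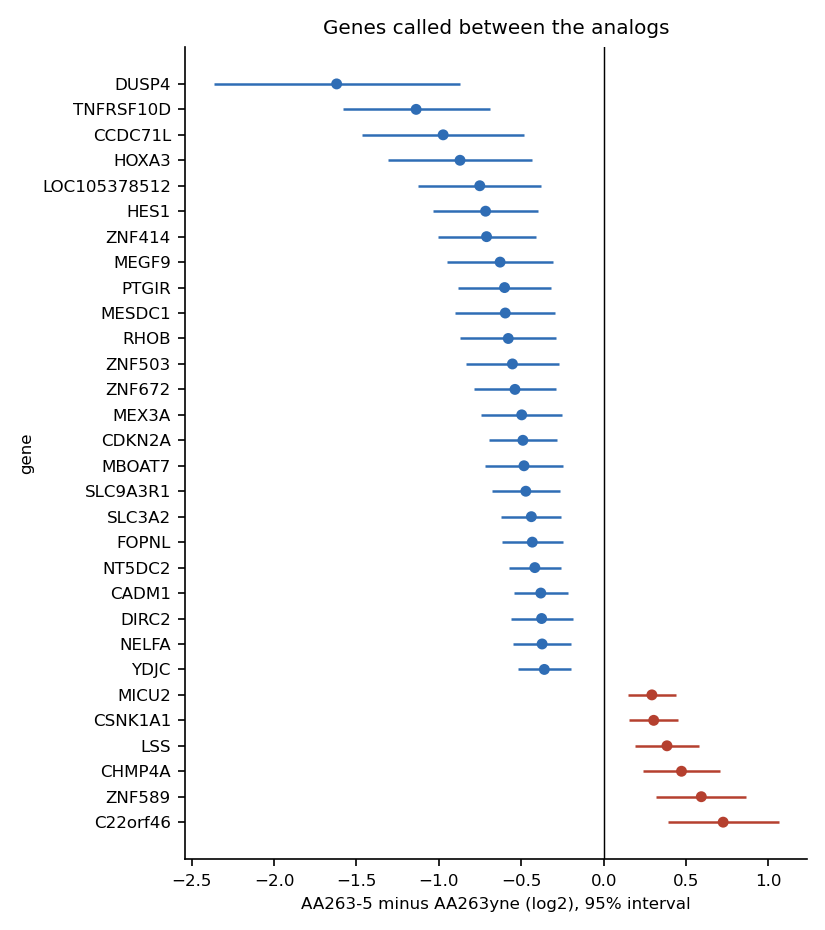
Difference of AA263-5 minus AA263yne (log2, horizontal axis) with its 95% interval for the 30 genes at an adjusted p under 0.05, lower genes in blue and higher genes in red. DUSP4 (-1.62) and C22orf46 (0.73) lie at the ends.

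No heat shock or oxidative stress target passed the adjusted test between the analogs. The 15 heat shock response targets had a median of -0.15, and 5 were lower at an unadjusted p under 0.05, beside 5.45% of all genes. SERPINH1, the collagen chaperone HSP47, was at 4124 with AA263yne and 3373 with AA263-5 (-0.29 ± 0.08, adjusted p = 0.0948), and the inducible chaperone HSPA1A rose by 1.19 ± 0.10 and 0.93 ± 0.10 on the log2 scale. HSPA1A and HSPA1B are near-identical copies whose reads cannot be separated with certainty. The 10 oxidative stress response targets had a median of 0.02 and none at an unadjusted p under 0.05. HMOX1, the haem oxygenase that NRF2 induces, rose by 1.86 ± 0.20 and 1.52 ± 0.20, a difference with an interval from -0.73 to 0.05.

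All 13 mitochondrially encoded genes, the respiratory chain subunits transcribed inside mitochondria, were below 0, beside 51.7% of all genes, with a median of -0.53. Of these, 8 had an unadjusted p under 0.05, beside 5.45% of all genes, and none passed the adjusted test. COX1 was at 852497 with AA263yne and 680922 with AA263-5 (-0.32 ± 0.10), and ND1 differed by -0.90 ± 0.35. These genes took 10.2% of all normalised signal with vehicle, 10.8% with AA263yne and 8.55% with AA263-5. They come from shared transcripts and so are not independent. The 79 respiratory chain subunits encoded in the nucleus had a median of -0.01, or 0.03 after a trend on transcript length was taken out, and 78 of their intervals were within 1.5-fold. Among 24 genes of ER calcium handling the median was -0.06 and 5 were lower at an unadjusted p under 0.05, beside 5.45% of all genes, led by ORAI1, the pore of store-operated calcium entry (-0.46 ± 0.12, adjusted p = 0.0688).

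Genes grouped by their response to the parent AA263, whose samples take no part in the difference between the analogs, are described next. The 480 genes lower with AA263 than with vehicle had a median difference between the analogs of -0.15, 81.2% were below 0, beside 51.7% of all genes, and 24.0% were lower at an unadjusted p under 0.05, beside 5.45%. The 493 genes higher with AA263 had a median of 0.03, with 40.4% below 0. The 10669 other genes had a median of 0.00. After the trend on GC content was taken out, the medians of the lowered and raised genes were -0.10 and 0.02. Of the 24 genes lower with AA263-5, AA263 lay nearer to AA263yne for 18 and nearer to AA263-5 for 6. HOXA3 was among the latter, at 195 with AA263. The 6 genes higher with AA263-5 split 3 and 3. All of these genes were picked on the difference between the analogs, and nearness was not counted over all genes.

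The difference between the analogs varied with base composition. Across the 11328 annotated genes the Spearman correlation of the difference with transcript GC content was -0.22, against 0.13 with transcript length, 0.15 with the number of exons and -0.11 with the mean normalised value. Genes share libraries and are not independent replicates, so these are descriptions. The median GC content was 48.1% over all genes, 55.7% over the 635 lower genes and 45.4% over the 387 higher ones. Over 10 equal bins of GC content the median difference went from 0.03 in the lowest to -0.09 in the highest. Against vehicle, the medians of both analogs also went down with GC content, from 0.15 to -0.22 for AA263yne and from 0.19 to -0.31 for AA263-5. Genes with 1 exon made up 2.35% of annotated genes and 6.90% of the lower ones, and their median difference was -0.13; RHOB, CCDC71L and MESDC1 are among them. Whether GC content had a part in these differences was not tested beyond taking out the trend, which left the medians of the immediate early genes at -0.29 and of the PERK/ISR targets at -0.14.

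**Figure D5:**
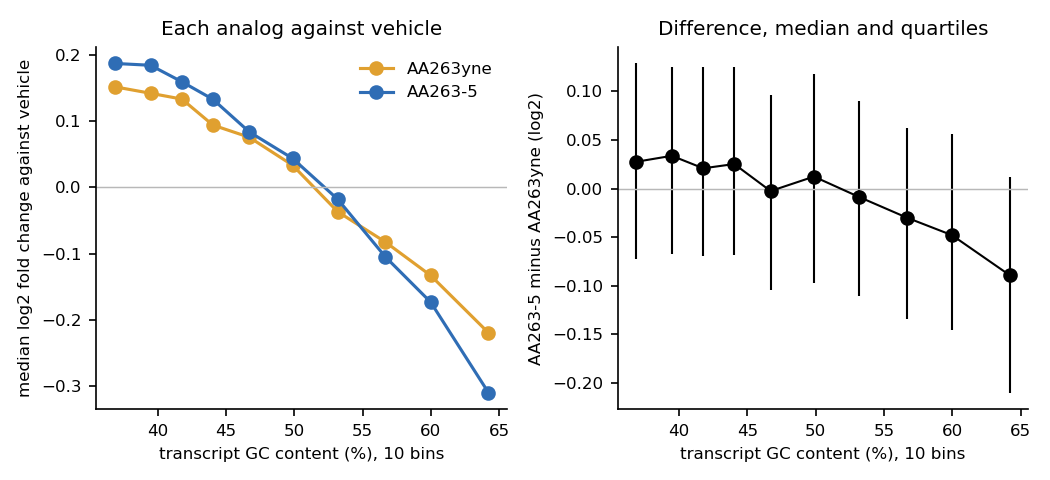
Median log2 fold change of each analog against vehicle (left) and median difference of AA263-5 minus AA263yne with quartiles (right) over 10 equal bins of transcript GC content in percent. The difference goes from 0.03 in the lowest bin to -0.09 in the highest.

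Windows of 300 bases were matched for 9411 of the tested genes, 1 start site each, and both strands were read. The ERSE occurred in 0.149% of them and in 3 of 15 ATF6 target promoters (HSPA5, CALR and CRELD2), and in none of the 490 matched promoters of genes lower at an unadjusted p under 0.05 or of the 321 of higher genes. A CARE occurred in 1.43% of all promoters, 3 of 15 PERK/ISR target promoters (ASNS, ATF3 and CARS) and 4 of 12 amino acid transporter promoters, SLC3A2 among them, but in 1.84% of promoters of lower genes and 1.25% of those of higher genes. AP-1 (TGACTCA) occurred in 2.50% of all promoters, 3.27% of those of lower genes and 1.56% of those of higher genes, the cyclic AMP element TGACGTCA in 3.54%, 4.08% and 2.49%, and GTGGGAA in 5.62%, 6.33% and 5.30%. The UPR element TGACGTGG was in 0.999%, 0.204% and 0.623%, and the antioxidant element TGACNNNGC in 15.2%, 13.5% and 15.9%. A match is a run of letters in the window and says nothing of binding.

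The cells carried the markers of the line: VIM, KRT8, KRT18, NEFL, NEFM and INA had mean normalised values from 704 to 18797, and PAX2 had 27.7. PTPRC, CD3E, PECAM1, CDH5, ALB, APOA1 and DCN, which mark other cell types, were at 4.79 or lower, while COL1A1 of fibroblasts was at 397.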

How the data were processed

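Strand-specific mRNA libraries (per the labels; the paper's methods say whole transcriptome) were aligned by the authors with SeqManPro to GRCh38.p7 and quantified in ArrayStar with QSeq; the submitters' processing notes name DESeq2 1.40.1 and both GRCh38 and GRCh37. The deposited signal of a gene averages, over the 12 samples, the values the authors had scaled by DESeq2 size factors. The deposited log2 values hold the authors' fold changes over vehicle and their standard errors from DESeq2, and the deposited p-value only marked genes that the fit had tested. The methods describe RPKM as the input to this fit. These columns are the authors' comparisons with vehicle; the difference between the analogs was formed from them, and their own adjusted p-values were not used. Values of single samples, and so the depth of each, were not analysed here; the signal sums to 36.6 M over genes, and the median standard error of a difference was 0.14 (log2).

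The test statistic was the difference over the root mean square of both standard errors (Wald test, two-sided, normal). This holds where both fold changes share the vehicle, groups are of equal size and the vehicle's variance is the mean of the analogs' variances. It is therefore approximate. A standard error rebuilt from group levels and dispersion was 0.961 to 1.03 times this one, with a median of 0.999. The p-values were adjusted by the Benjamini-Hochberg method over 11642 genes in Python 3.11.15 with scipy 1.17.1. The step was tested on simulated data. Group levels were rebuilt from the mean and the 3 fold changes. GC content, length and exons came from the canonical transcripts of GENCODE 44 on GRCh38, matched by symbol or RefSeq synonym for 97.3% of genes, and promoters from RefSeq (GRCh38.p14). In all, 45 gene lists were described by counts and medians; 5 were the study's sets, chosen by its authors. Members and lists were chosen with earlier results of these data known. Named genes were the 30 called genes, the 2 members of each list with the largest difference over its standard error, and HSPA5, DNAJB9 and DDIT3; the other genes named were chosen after their values were seen. Among symbols, 23 had turned into dates or numbers and were not named.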

Additional observations from a re-analysis of the deposited data

How the results depend on the processing

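The alternatives changed the number of genes told apart and no direction of any named gene. With standard errors combined as if the fold changes were independent, which counts the shared vehicle as noise, the Wald test called 0 genes higher and 0 lower, against 222 at an unadjusted p under 0.05. Dividing the statistic by its robust SD left 0 higher and 2 lower, and the Benjamini-Yekutieli adjustment likewise left 0 higher and 2 lower, with 724 and 1022 genes at an unadjusted p under 0.05. With a trend on GC content subtracted, 11 genes were lower. Minimum means of 10 and 500, a standard error rebuilt from group levels, the median subtracted and a length trend subtracted gave 16 to 24 lower and 4 to 6 higher genes. A minimum of 1.5-fold against vehicle left 150 higher and 157 lower genes with AA263yne, and 165 and 457 with AA263-5. List medians moved by over 1.5 times in some cases, both within 0.05 of 0 and further from it. With a minimum mean of 500, the PERK/ISR median went from -0.18 to -0.09 and that of the amino acid transporters from -0.14 to -0.05. In that setting the median of the aryl hydrocarbon receptor targets went from 0.11 to -0.12. With the GC trend subtracted, the median of the ATF4-induced regulators went from -0.18 to -0.11. No paired analysis was possible because the columns hold group estimates and no single samples; for the same reason no replicate was left out. Differences under about 0.27 on the log2 scale lie within the 95% interval of a gene with the median standard error.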

Other observations

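The gene with the lowest difference was ARC, an activity-regulated gene that MAP kinase signalling induces, at 346 with vehicle, 67.0 with AA263, 380 with AA263yne and 52.7 with AA263-5 (difference -2.85 ± 0.95, adjusted p = 0.236). ETV5, an ETS factor that the same signalling induces, was at 171, 23.2, 206 and 38.7 in that order of groups (-2.41 ± 1.11, adjusted p = 0.478). For ARC, ETV5, EGR1 and DUSP4 alike, the level with AA263yne lay near or above that with vehicle, and the levels with AA263 and AA263-5 lay below it. ARC and ETV5 were chosen after their values were seen, and their wide standard errors mean that neither passed the adjusted test.

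Among 33 genes of ER protein translocation the median difference was -0.03, with 4 higher and 2 lower at an unadjusted p under 0.05, beside 3.32% and 5.45% of all genes. SEC11C, the catalytic subunit of the signal peptidase, was at 1518 with AA263yne and 1876 with AA263-5 (0.31 ± 0.12, adjusted p = 0.368), and WRB, the receptor for tail-anchored proteins, was at 511 and 335 (-0.61 ± 0.18, adjusted p = 0.151). The 14 tested genes of retinoid receptors and metabolism had a median of 0.06 with 4 below 0, beside 51.7% of all genes. At an unadjusted p under 0.05, 1 was lower and 1 higher, beside 5.45% and 3.32%. The lower one, CYP26A1, which breaks down retinoic acid, was at 221 with vehicle, 141 with AA263yne and 70.4 with AA263-5 (95% interval of the difference from -1.74 to -0.26, adjusted p = 0.326). The higher one, RDH10, which makes retinal, differed by 0.40 ± 0.19 (adjusted p = 0.508). The 83 cytosolic ribosomal protein genes had a median of -0.07 (-0.03 after a trend on transcript length was taken out). Of these, 59 were below 0, beside 51.7% of all genes. The 30 genes of G2 and M phase had a median of 0.05 (0.03 after a trend on GC content was taken out) with all 30 intervals within 1.5-fold.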
